A study of Mus musculus with 8 samples.

Results

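The 10 genes described here are the NF-kB subunits and their inhibitors, chosen by name from the 47937 genes counted in cultured mouse dendritic cells. The subunits are *Nfkb1*, *Nfkb2*, *Rel*, *Rela* and *Relb*, and the inhibitors are *Nfkbia*, *Nfkbib*, *Nfkbie*, *Nfkbiz* and *Tnfaip3*. All 10 were found in the count tables and all 10 passed the filter on low counts in every comparison.

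NF-kB is a family of dimeric transcription factors that is held in the cytoplasm by inhibitor proteins (IkB) until a receptor such as TLR4, the sensor of bacterial lipopolysaccharide (LPS), activates the IkB kinase. The kinase marks the inhibitor for degradation, the dimer enters the nucleus, and among the genes it switches on are several of its own subunits and inhibitors, which form a feedback loop. In dendritic cells the classical dimers of RelA or c-Rel with p50 are known for the cytokine response and the alternative dimer of RelB with p52 for maturation.

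The cells were bone marrow-derived dendritic cells (BMDCs), which grow out of bone marrow in medium with GM-CSF, a myeloid growth factor. The WT cells came from Cre-negative C57BL6/J control mice matched for age and sex, and the 3xGrk-/- cells from adult mice with Vav-iCre, floxed alleles (*Grk6* fl/fl, *Grk2* fl/fl) and *Grk3*-/-, which lack the G-protein coupled receptor kinases that dendritic cells express. After 8 days of culture each genotype was left unstimulated or received 20 ng/ml LPS for 24 h, and 2 libraries were available for each of the 4 groups. Vav-iCre is active from early blood cell precursors on, so that the deletion was not limited to dendritic cells, and the *Grk3* allele was a knockout of the whole mouse. Nothing in the sources used here says that the libraries are separate cultures or mice, and the methods speak of technical repeats, so all p-values measure the spread between these libraries, which may be technical.

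The 8 libraries held between 4713305 and 6933358 reads on genes. The targeted genes were lower in 3xGrk-/- than in WT cells, *Grk2* by a log2 fold change of -1.11 without and -1.89 with LPS, *Grk6* by -1.19 and -1.54, and *Grk3* by -0.36 and -0.42. Counts over a whole gene do not show whether its deleted part is still present. By the mean chi-square per gene, the replicate libraries of LPS-stimulated 3xGrk-/- cells differed most, with 9.02 against 1.59 to 3.07 in the other groups. The rRNA-overlapping gene *Gm42418* took 2.16% of the counts in the second of these libraries and 0.273 to 0.638% in the others. It had 26853 counts in the first and 149727 in the second. The mean includes this gene and can be raised by a single such gene. No value without it was computed, so the spread over the other genes is not given by it. Dendritic cell markers were all detected, 12 of 12, and their summed level was 23155 to 23367 CPM (counts scaled by library size and TMM factor, which corrects for differences in RNA composition) in unstimulated WT, 12888 to 13123 in unstimulated 3xGrk-/-, 16939 to 18378 in LPS-stimulated WT and 14189 to 14467 in LPS-stimulated 3xGrk-/- cells. Markers of lymphocytes (2 of 8 above 3 counts in any library) and of red blood cells (0 of 4, with the globin gene *Hba-a1* at 0 throughout) were at or near 0.

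The promoters of members are shown first because several of these genes are regarded as targets of NF-kB itself. RefSeq promoter windows on GRCm38.p6, which run from 250 bases before to 50 bases after the transcription start, were found for 7 of the 10 members, in 10 windows of 300 bases. *Nfkb1*, *Relb* and *Nfkbiz* had no window in the table used. The kB consensus, the 10-letter binding motif of NF-kB, was searched on both strands. The motif was present in 7 of the 10 member windows (70%) and in 5 of the 7 genes (71.4%), against 1480 of 32851 windows (4.51%) and 5.14% of the genes in the whole table. Among the other NF-kB pathway genes 11 of 45 windows held it (24.4%), and among NF-kB target genes 10 of 25 (40%). A relaxed form of the motif left the members at 7 of 10 windows, while the share of all windows went up to 11.2%, that of the pathway genes to 37.8% and that of the targets to 44%. The windows of the 5 genes with a match are printed in the direction of transcription, with the matching letters in capitals.
Nfkb2 (chr19:46304487-46304786, plus strand): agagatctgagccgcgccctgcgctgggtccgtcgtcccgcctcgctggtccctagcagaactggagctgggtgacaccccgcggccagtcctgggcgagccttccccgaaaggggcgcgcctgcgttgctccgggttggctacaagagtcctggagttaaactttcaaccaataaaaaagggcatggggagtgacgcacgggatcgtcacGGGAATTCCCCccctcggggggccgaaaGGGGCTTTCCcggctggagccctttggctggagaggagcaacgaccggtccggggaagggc
Rel (chr11:23770920-23771219, minus strand): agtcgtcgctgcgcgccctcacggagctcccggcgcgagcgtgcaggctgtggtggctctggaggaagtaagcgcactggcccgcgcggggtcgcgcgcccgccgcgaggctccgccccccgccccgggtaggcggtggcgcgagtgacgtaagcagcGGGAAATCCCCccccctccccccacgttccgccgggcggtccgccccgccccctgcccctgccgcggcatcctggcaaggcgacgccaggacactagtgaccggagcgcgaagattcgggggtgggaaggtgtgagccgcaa
Nfkbia (chr12:55492598-55492897, minus strand): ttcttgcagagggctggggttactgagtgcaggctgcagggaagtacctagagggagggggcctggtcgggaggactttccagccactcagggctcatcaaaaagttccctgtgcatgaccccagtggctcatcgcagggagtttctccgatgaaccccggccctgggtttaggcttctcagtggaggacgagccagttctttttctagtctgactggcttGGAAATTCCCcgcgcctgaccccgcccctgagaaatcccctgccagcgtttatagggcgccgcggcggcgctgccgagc
Nfkbie (chr17:45555450-45555749, plus strand): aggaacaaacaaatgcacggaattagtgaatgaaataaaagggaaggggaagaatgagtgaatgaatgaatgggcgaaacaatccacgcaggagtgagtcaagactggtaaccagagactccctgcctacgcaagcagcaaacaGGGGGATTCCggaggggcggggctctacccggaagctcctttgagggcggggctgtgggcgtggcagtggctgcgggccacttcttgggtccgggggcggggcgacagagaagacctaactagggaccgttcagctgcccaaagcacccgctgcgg
Tnfaip3 (chr10:19015361-19015660, minus strand): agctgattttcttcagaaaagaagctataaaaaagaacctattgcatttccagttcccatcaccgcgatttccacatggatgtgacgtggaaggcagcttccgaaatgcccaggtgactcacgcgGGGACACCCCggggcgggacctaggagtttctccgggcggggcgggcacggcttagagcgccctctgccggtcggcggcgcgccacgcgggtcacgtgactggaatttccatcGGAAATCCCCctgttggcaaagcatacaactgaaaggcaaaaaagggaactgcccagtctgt
In *Nfkb2* the first matching letters began 39 bases before the start, with a second match shifted by 1 base inside the same run and a further one 11 bases before the start. The *Rel* window had 2 overlapping matches, 92 and 91 bases before the start. *Nfkbia*, the gene of IkBalpha, had GGAAATTCCC 29 bases and *Nfkbie* had GGGGGATTCC 106 bases before the start. *Tnfaip3* had 2 matches that do not overlap, at 125 and 12 bases before the start. The 2 other windows of *Nfkb2*, which overlap each other, held matches as well, of which they share GGGACTTTCC. The windows of *Rela* and *Nfkbib* and the second window of *Tnfaip3* held no match, which says only that these letters are not in those 300 bases. A match is a description of the sequence and no evidence of binding in these cells.

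The abundance of the members relative to each other was compared as CPM per kilobase of the longest coding transcript. In unstimulated WT cells *Nfkbia* was the most abundant member with 183.7 CPM per kb, followed by *Relb* with 148 and *Nfkb1* with 127. *Nfkb2* reached 107.5, *Rel* 68.1, *Nfkbie* 63.9, *Rela* 47.1, *Nfkbib* 33.6 and *Tnfaip3* 27.5 CPM per kb. *Nfkbiz*, which encodes the nuclear protein IkBzeta, was the least abundant with 3.4 CPM per kb. *Nfkbia* stayed first and *Nfkbiz* last in all 4 groups. The places between them depend on the length used: with all annotated exons as the length, an alternative chosen after the data were seen, *Nfkb1* fell from place 3 to place 6, since its annotated exons span 12061 bases and its longest coding transcript 4117 (places in unstimulated WT cells).

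*Nfkb1* (chr3:135584655-135691547) encodes p105 and its product p50, the partner of RelA and c-Rel in the classical dimers. Its level was 520.2 and 529 CPM in unstimulated WT, 698 and 706 in unstimulated 3xGrk-/-, 1198 and 1280 in LPS-stimulated WT and 1083 and 1043 in LPS-stimulated 3xGrk-/- libraries. *Nfkb1* was thus lowest in resting WT cells and highest in stimulated WT cells, the 3xGrk-/- groups lay between them, and no 2 groups overlapped. *Nfkb2* (chr19:46304320-46312385), which encodes p100 and its product p52, had 418 and 409.5 CPM in unstimulated WT, 552 and 549 in unstimulated 3xGrk-/-, 782 and 829 in LPS-stimulated WT and 792 and 784 in LPS-stimulated 3xGrk-/- libraries. The genotypes were apart without LPS and overlapped with it. *Rel* (chr11:23736847-23770970), the gene of c-Rel, had 495 and 522.5 CPM in unstimulated WT, 565 and 581 in unstimulated 3xGrk-/-, 979 and 851 in LPS-stimulated WT and 754 and 816 in LPS-stimulated 3xGrk-/- libraries. Its groups had the same order as those of *Nfkb1*, and the stimulated WT libraries differed from each other more than those of any other group.

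*Rela* (chr19:5637483-5648130) encodes RelA (p65), the main activating subunit of the classical dimer, and varied little. It had 128 CPM in both unstimulated WT libraries, 133 and 139 in unstimulated 3xGrk-/-, 137 and 147 in LPS-stimulated WT and 171 and 169.8 in LPS-stimulated 3xGrk-/- libraries. Only the stimulated 3xGrk-/- libraries stood above all others, while unstimulated 3xGrk-/- and stimulated WT libraries overlapped. *Relb* (chr7:19606217-19629438), the subunit of the alternative pathway, had 335 and 320.5 CPM in unstimulated WT, 353 and 344 in unstimulated 3xGrk-/-, 368.5 and 418 in LPS-stimulated WT and 441 and 423 in LPS-stimulated 3xGrk-/- libraries. The groups followed the same order as for *Rela* and did not overlap.

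Among the inhibitors, *Nfkbia* (chr12:55489410-55492647) encodes IkBalpha, the form that is degraded and rebuilt within the response to LPS. It had 295 and 285 CPM in unstimulated WT, 366 and 349 in unstimulated 3xGrk-/-, 511.5 and 529 in LPS-stimulated WT and 619 and 584.5 in LPS-stimulated 3xGrk-/- libraries, so that the 3xGrk-/- libraries were above WT in both states. *Nfkbib* (chr7:28758251-28767512), which encodes IkBbeta, had 68.6 and 69.8 CPM in unstimulated WT, 99.3 and 92.9 in unstimulated 3xGrk-/-, 238 and 257 in LPS-stimulated WT and 189 and 188 in LPS-stimulated 3xGrk-/- libraries. The order of the genotypes was reversed between the states, and no groups overlapped. *Nfkbie* (chr17:45555703-45563169), the gene of IkBepsilon, had 155 and 156.5 CPM in unstimulated WT, 131 and 126 in unstimulated 3xGrk-/-, 211 and 228 in LPS-stimulated WT and 210.3 and 203 in LPS-stimulated 3xGrk-/- libraries. It was the only one of the 10 with its lowest level in unstimulated 3xGrk-/- cells.

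*Nfkbiz* (chr16:55811375-55838899) encodes a nuclear IkB-like protein that acts as a cofactor for secondary response genes. It had 15.7 and 12.3 CPM in unstimulated WT, 21.2 and 23.96 in unstimulated 3xGrk-/-, 97.6 and 98.1 in LPS-stimulated WT and 85.8 and 81.1 in LPS-stimulated 3xGrk-/- libraries. The values without LPS rest on few reads, 82 and 88 counts in WT and 142 and 138 in 3xGrk-/- libraries. *Tnfaip3* (chr10:19000910-19015657) encodes A20, a ubiquitin-editing enzyme that shuts off signaling upstream of the IkB kinase. It had 123 and 119.7 CPM in unstimulated WT, 153 and 147 in unstimulated 3xGrk-/-, 295 and 314 in LPS-stimulated WT and 478 in both LPS-stimulated 3xGrk-/- libraries, and none of its groups overlapped. In all, 5 members had their highest mean level in stimulated WT cells with unstimulated WT lowest (*Nfkb1*, *Nfkb2*, *Rel*, *Nfkbib* and *Nfkbiz*), 4 had it in stimulated 3xGrk-/- cells with unstimulated WT lowest (*Rela*, *Relb*, *Nfkbia* and *Tnfaip3*), and *Nfkbie* made up the third order.

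**Figure D1:**
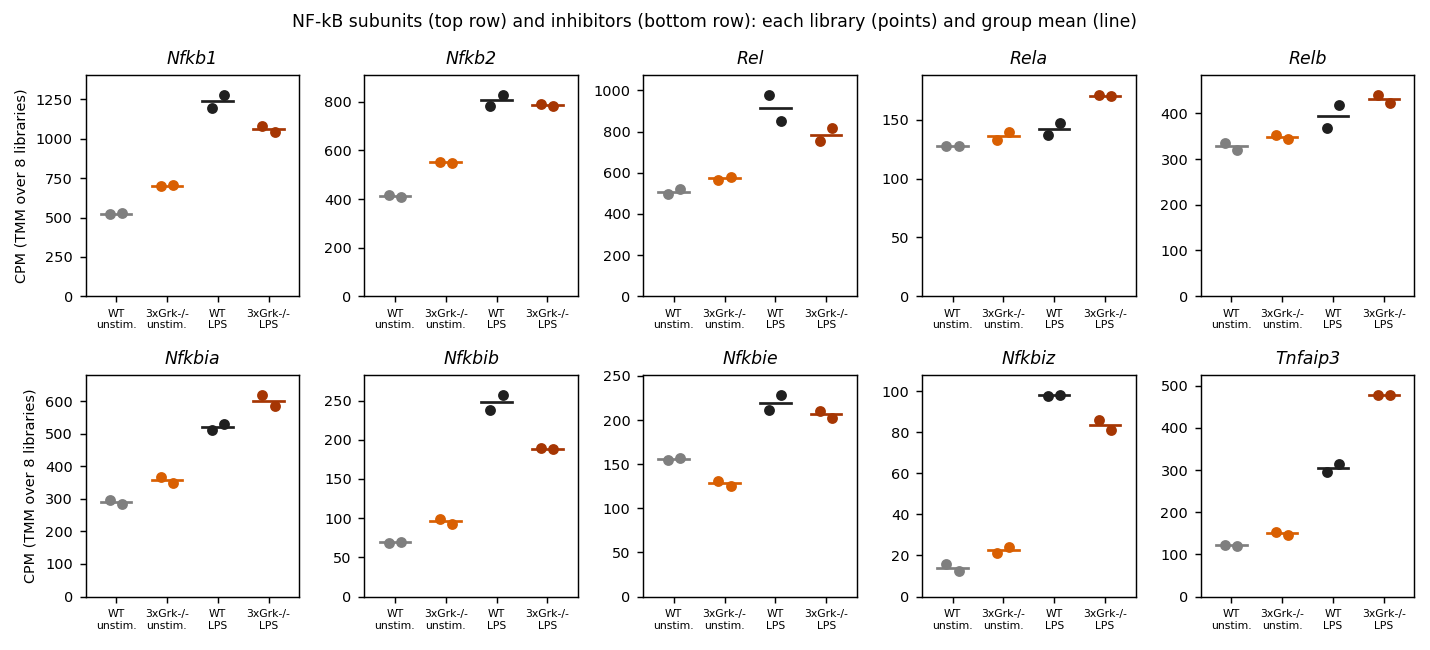
Level of each member in CPM on a linear axis from 0 (scaled over the 8 libraries), with a point for each library and a line for the mean of 2 libraries, in WT and 3xGrk-/- cells without and with LPS. *Nfkbib* shows the exchange of the genotypes, from 68.6 and 69.8 against 99.3 and 92.9 CPM without LPS to 238 and 257 against 189 and 188 with LPS, while *Tnfaip3* in 3xGrk-/- cells lies above WT in both states.

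Whether GRK loss changes these genes in resting cells was asked by the comparison of the unstimulated libraries. Most members were higher in 3xGrk-/- than in WT cells: 7 of 10 rose, 1 fell and 2 did not pass the test (edgeR's quasi-likelihood test, called where p after Benjamini-Hochberg adjustment across all genes was under 0.05). Of the 12000 genes tested, 44.7% were called, 22.1% as higher and 22.7% as lower. The median log2 fold change of the members was 0.31 and that of all genes -0.00168. No member reached a log2 fold change of 1 in size, and the range ran from -0.28 for *Nfkbie* to 0.71 for *Nfkbiz*. In bulk RNA, fewer cells of a type and less RNA per cell cannot be told apart.

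Of the subunits, the precursor genes rose most, *Nfkb1* by a log2 fold change of 0.42 ± 0.0376 (SE, 2 libraries per group, adjusted p = 1.01e-27) and *Nfkb2* by 0.41 ± 0.0396 (adjusted p = 2.64e-24). *Rel* rose by 0.17 ± 0.0385 (adjusted p = 4.20e-05). *Rela*, with 0.09 ± 0.0573 (adjusted p = 0.211), and *Relb*, with 0.09 ± 0.0427 (adjusted p = 0.0704), did not pass the test, with 95% intervals of -0.02 to 0.20 and 0.01 to 0.17. All 5 inhibitors passed it. *Nfkbiz* rose by 0.71 ± 0.146 (adjusted p = 5.56e-06), *Nfkbib* by 0.475 ± 0.0715 (adjusted p = 2.30e-10), *Tnfaip3* by 0.31 ± 0.0568 (adjusted p = 2.95e-07) and *Nfkbia* by 0.30 ± 0.0433 (adjusted p = 1.71e-11). *Nfkbie* went the other way and fell by 0.28 ± 0.0558 on the log2 scale (adjusted p = 3.22e-06). The libraries of the genotypes did not overlap for any of the 10 members, as was the case for 69.1% of all genes tested.

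The calls rest on the small spread between these libraries, a common coefficient of variation of 0.0306. With this coefficient set to 0.4 no member was called, and scaled by library size alone *Rel* lost its call (log2 fold change 0.09, adjusted p = 0.0613). *Relb* gained a call without the first WT library (0.12, adjusted p = 0.0470) and with no filter beyond 1 count (0.11, adjusted p = 0.0395). Markers of other cells moved with the genotype, in part in both directions. Of 10 monocyte and macrophage markers 5 were higher and 4 lower in 3xGrk-/- cells, among them *Cd68* (log2 fold change 2.09) and *C1qb* (-1.94), and their summed level was 1018 to 1045 CPM in WT and 1500 to 1555 in 3xGrk-/- libraries. Of 10 neutrophil markers 5 were lower, among them *S100a9* (-0.67) and *Mpo* (-1.68), and only *Mmp8* was higher (2.84), while their summed level was 807 to 848 CPM in WT and 1262 to 1291 in 3xGrk-/- libraries. Of 7 eosinophil markers 6 were lower and 0 higher, with sums of 1175 to 1232 and 62.9 to 69.1 CPM. Of the 12 dendritic cell markers, whose summed level was lower in 3xGrk-/- cells, 7 were called lower and 4 higher, the latter *Flt3* (0.95), *Irf8* (0.82), *Ccr7* (0.24) and *Itgax* (0.19). The part of these markers in the differences of the NF-kB genes was not tested.

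The same comparison in LPS-stimulated cells gave a mixed picture, with 3 members higher in 3xGrk-/- cells, 4 lower and 3 not passing the test, at a background of 48.6% of 11830 genes called (24.7% higher, 24% lower). *Tnfaip3*, the A20 gene, rose by a log2 fold change of 0.65 ± 0.0600 (adjusted p = 1.08e-08), the strongest change of a member. *Rela* rose by 0.26 ± 0.0695 (adjusted p = 0.00398) and *Nfkbia* by 0.21 ± 0.0584 (adjusted p = 0.00550). The members that fell were led by *Nfkbib*, by 0.40 ± 0.0646 on the log2 scale (adjusted p = 2.95e-05). *Nfkb1* fell by 0.22 ± 0.0547 (adjusted p = 0.00203), *Rel* by 0.22 ± 0.0670 (adjusted p = 0.00930) and *Nfkbiz* by 0.23 ± 0.0799 (adjusted p = 0.0210). The values of *Nfkb2* (-0.03 ± 0.0558, adjusted p = 0.664), *Relb* (0.13 ± 0.0647, adjusted p = 0.0983) and *Nfkbie* (-0.09 ± 0.0653, adjusted p = 0.263) did not pass. Their 95% intervals were -0.14 to 0.08, 0.01 to 0.26 and -0.22 to 0.04. These are approximate and somewhat narrower than the test: that of *Relb* excludes 0, while its unadjusted p in the quasi-likelihood test was 0.0537. Apart from *Nfkb2*, the libraries of the genotypes did not overlap for any member, as for 72.6% of all genes tested.

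Several of these calls were lost when a single library was left out. Such a fit has 1 library in a group and less power, so a lost call need not mean a smaller effect. The log2 fold change of *Rela*, 0.26 with all libraries, was no smaller without either 3xGrk-/- library. Without the first stimulated 3xGrk-/- library 3 members were called, and without the second 4. *Nfkb1* was lost without the second (-0.18, adjusted p = 0.17), *Nfkbia* without the first (0.18, adjusted p = 0.172), and *Rela* (0.26 and 0.28, adjusted p = 0.0682 and 0.0567) and *Nfkbiz* (-0.26 and -0.18, adjusted p = 0.109 and 0.320) without either. *Rel* was lost without the first WT library (-0.11, adjusted p = 0.0804) or the first 3xGrk-/- library (-0.16, adjusted p = 0.221). *Nfkbiz* was also lost in DESeq2 (-0.22, adjusted p = 0.162) and with no filter beyond 1 count (-0.21, adjusted p = 0.0697), and *Rela* (0.17, adjusted p = 0.0536) and *Nfkbia* (0.12, adjusted p = 0.117) when scaled by library size alone. *Nfkbib* and *Tnfaip3* kept their calls under every alternative except the set coefficient of 0.4 and the minimum log2 fold change of 1, each of which left no member called. *Relb* gained a call without the second WT library (0.24, adjusted p = 0.00103) and with no filter beyond 1 count (0.16, adjusted p = 0.0452). *Nfkbie* gained one without the first WT library (-0.14, adjusted p = 0.0416) and with library size alone (-0.18, adjusted p = 0.0341). All 10 monocyte and macrophage markers were higher in 3xGrk-/- cells, with sums of 407 to 413 CPM in WT and 2787 to 2847 in 3xGrk-/- libraries. Of the neutrophil markers 6 of 9 tested were lower, among them *S100a9* (-1.30) and *Mpo* (-2.92), and only *Mmp8* was higher (3.85), while the sum was 360 to 417 and 548 to 569.8 CPM. All 7 eosinophil markers were lower, with sums of 1084 to 1183 and 79.6 to 85.6 CPM. Of 5 stromal markers 4 were tested and higher, with sums of 2.17 to 7.08 and 127 to 138 CPM. At such low WT sums they may have passed the filter through the 3xGrk-/- libraries alone, which would fix their direction. Of the 12 dendritic cell markers 10 were lower and 2 higher. The part of these markers in the differences was not tested.

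**Figure D2:**
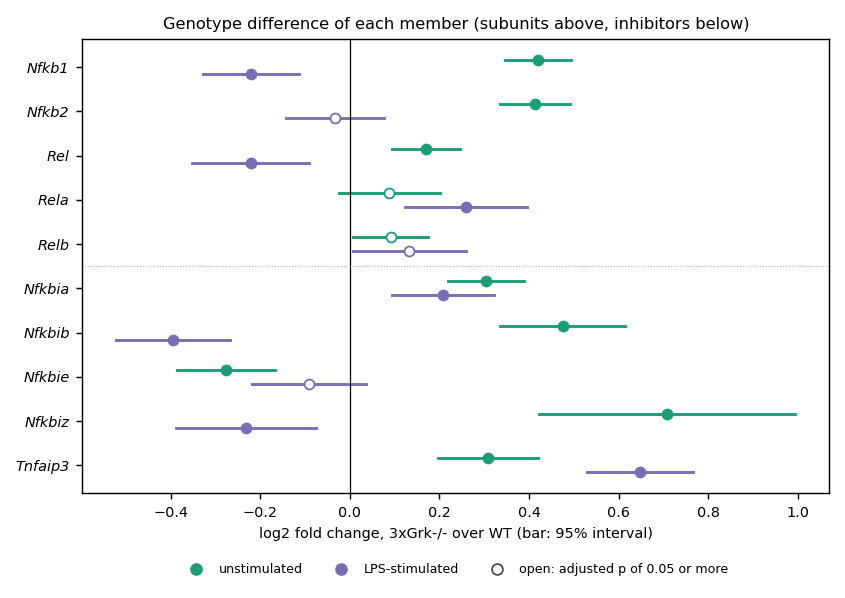
Log2 fold change of each member, 3xGrk-/- over WT, with its 95% interval as a bar, for unstimulated and LPS-stimulated cells (2 libraries per group). Filled points have an adjusted p under 0.05, and *Nfkb1*, *Rel*, *Nfkbib* and *Nfkbiz* lie above 0 without LPS and below 0 with LPS.

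The response to LPS was asked within each genotype in a fit of all 8 libraries. All 10 members rose in WT cells, where 60.3% of 12541 genes were called, 29.5% as higher and 30.8% as lower. All 10 rose in 3xGrk-/- cells too, at 55.4% called, 28% as higher and 27.4% as lower. The libraries of the 2 states did not overlap for any member, as for 78.2% of all genes in WT and 77.6% in 3xGrk-/- cells. The median log2 fold change was 0.90 in WT and 0.64 in 3xGrk-/- cells, against -0.0148 and -0.00723 for all genes. LPS and unstimulated libraries were deposited in separate count tables, so any difference in handling between the tables cannot be told apart from the response. Cell type markers moved with LPS as well. Of the 10 monocyte and macrophage markers 8 fell and 2 rose in WT cells (median log2 fold change -1.62), and 2 fell and 4 rose in 3xGrk-/- cells (median -0.05). Neutrophil markers fell for 6 of 10 in WT and 9 of 10 in 3xGrk-/- cells and rose for 0. Of 4 stromal markers tested 1 rose in WT and 4 in 3xGrk-/- cells. The stromal markers summed to at most 2.54 CPM without LPS, so that they could hardly be called as falling. Of the 12 dendritic cell markers 4 rose and 6 fell in WT and 5 rose and 3 fell in 3xGrk-/- cells. The part of these markers in the responses was not tested.

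*Nfkbiz* had the largest response in both genotypes, a log2 fold change of 2.83 ± 0.109 in WT and 1.89 ± 0.102 in 3xGrk-/- cells (adjusted p = 9.21e-19 and 2.01e-15). *Nfkbib* followed in WT with 1.84 ± 0.0657 (adjusted p = 1.51e-19) and reached 0.97 ± 0.0641 in 3xGrk-/- cells (adjusted p = 2.13e-13). *Tnfaip3* responded by 1.33 ± 0.0578 in WT and by 1.67 ± 0.0557 in 3xGrk-/- cells (adjusted p = 1.44e-17 and 2.88e-20). These inhibitors and *Nfkb1* were the 4 members with a log2 fold change above 1 in WT, and *Nfkbiz* and *Tnfaip3* were the 2 in 3xGrk-/- cells, where 21.5% and 18.9% of all genes were called at that size. *Nfkbia* rose by 0.85 ± 0.0525 and 0.75 ± 0.0517 and *Nfkbie* by 0.50 ± 0.0585 and 0.685 ± 0.0600.

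Of the subunit genes, *Nfkb1* rose by 1.24 ± 0.0472 in WT and 0.60 ± 0.0466 in 3xGrk-/- cells, *Nfkb2* by 0.96 ± 0.0482 and 0.52 ± 0.0476, and *Rel* by 0.85 ± 0.0572 and 0.45 ± 0.0569. *Relb* rose by 0.265 ± 0.0574 and 0.31 ± 0.0570, and *Rela*, with the smallest response in WT cells, rose by 0.15 ± 0.0628 in WT (adjusted p = 0.0353) and 0.32 ± 0.0614 in 3xGrk-/- cells (adjusted p = 5.41e-05). Scaled by library size alone, which moved the median of all genes to -0.23 in both genotypes and the share of higher genes among the calls from 49.0% to 31.1% in WT and from 50.5% to 30.2% in 3xGrk-/- cells, *Rela* was at -0.06 in WT and 0.11 in 3xGrk-/- cells and *Relb* at 0.05 and 0.09, and none of these was called. *Rela* in WT also lost its call in DESeq2 (0.16, adjusted p = 0.138) and without either unstimulated WT library (0.15 and 0.155, adjusted p = 0.116 and 0.119) or the second stimulated one (0.11, adjusted p = 0.184), with other filters on low counts (0.14 and 0.12, adjusted p = 0.101 and 0.0879) and in a fit of the WT libraries only (0.15, adjusted p = 0.0807). With the coefficient of variation set to 0.4, only *Nfkbib* and *Nfkbiz* were still called in WT and only *Nfkbiz* in 3xGrk-/- cells.

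**Figure D3:**
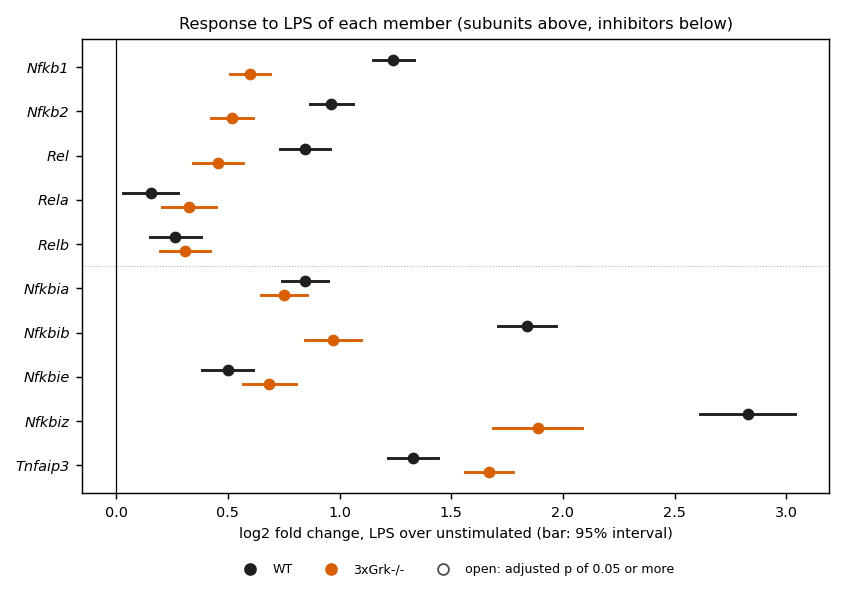
Log2 fold change of each member, LPS-stimulated over unstimulated, with its 95% interval as a bar, in WT and 3xGrk-/- cells (fit of 8 libraries, 2 per group). All points lie above 0, and the intervals of the genotypes are apart for *Nfkb1*, *Nfkb2*, *Rel*, *Nfkbib*, *Nfkbiz* and *Tnfaip3*.

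The difference of the responses was tested as an interaction in the same fit. The response was smaller in 3xGrk-/- than in WT cells for 5 members and larger for 1, and 4 did not pass. Of all genes 32.5% were called, 16% with a negative and 16.5% with a positive difference. The smaller responses were those of *Nfkbiz*, by a log2 difference of -0.94 ± 0.162 (adjusted p = 3.53e-05), *Nfkbib*, by -0.87 ± 0.0926 (adjusted p = 1.45e-08), *Nfkb1*, by -0.64 ± 0.0659 (adjusted p = 7.69e-09), *Nfkb2*, by -0.45 ± 0.0675 (adjusted p = 5.78e-06), and *Rel*, by -0.39 ± 0.0805 (adjusted p = 0.000326). *Tnfaip3* was the exception, with a response larger by 0.34 ± 0.0801 in 3xGrk-/- cells (adjusted p = 0.00136). For *Rela* (0.17, adjusted p = 0.148), *Relb* (0.04, adjusted p = 0.739), *Nfkbia* (-0.09, adjusted p = 0.362) and *Nfkbie* (0.19, adjusted p = 0.0944) no difference was detected. Their 95% intervals were -0.00223 to 0.34, -0.12 to 0.20, -0.24 to 0.05 and 0.02 to 0.35. *Nfkb1*, *Rel*, *Nfkbib* and *Nfkbiz* were each called as higher in unstimulated and as lower in stimulated 3xGrk-/- cells. The share of all genes with such a switch was not counted. The interaction uses the same libraries as the comparisons of the genotypes, so that these values are not independent of each other. Without the second stimulated WT library, *Rela* (0.22, adjusted p = 0.0374) and *Nfkbie* (0.24, adjusted p = 0.0133) were called too, the latter also with a filter of at least 10 counts in every library (0.22, adjusted p = 0.0347). Under the coefficient of variation of 0.4 no interaction of a member was called. In the same test all 10 monocyte and macrophage markers had a larger log2 response in 3xGrk-/- cells (median difference 2.09), as did 5 of 12 dendritic cell and 1 of 10 neutrophil markers, while 4 and 3 of these had a smaller one. Their part in the interaction of the members was not tested.

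The balance of inhibitor and subunit RNA was followed as a ratio of counts per kb, as a description without a test. It says nothing about the proteins, and *Nfkb1* and *Nfkb2* were placed among the subunits only. The summed level of the classical IkB genes *Nfkbia*, *Nfkbib* and *Nfkbie* over the 5 subunits was 0.567 and 0.560 in unstimulated WT, 0.558 and 0.530 in unstimulated 3xGrk-/-, 0.625 and 0.627 in LPS-stimulated WT and 0.685 and 0.664 in LPS-stimulated 3xGrk-/- libraries. The ratio was higher with LPS in both genotypes, by 0.15 on the log2 scale in WT and 0.31 in 3xGrk-/- cells, and the states did not overlap. The size in WT depends on the length, with 0.063 for counts undivided by length and 0.21 with all annotated exons. The alternative subunits *Relb* and *Nfkb2* over the classical *Rela* and *Nfkb1* gave 1.501 and 1.43 in unstimulated WT, 1.39 and 1.34 in unstimulated 3xGrk-/-, 1.09 and 1.11 in LPS-stimulated WT and 1.24 and 1.25 in LPS-stimulated 3xGrk-/- libraries. This ratio was lower with LPS, by 0.42 on the log2 scale in WT and 0.13 in 3xGrk-/- cells. It depends on the length given to *Nfkb1*: with all annotated exons the same differences were -0.14 and -0.05.

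**Figure D4:**
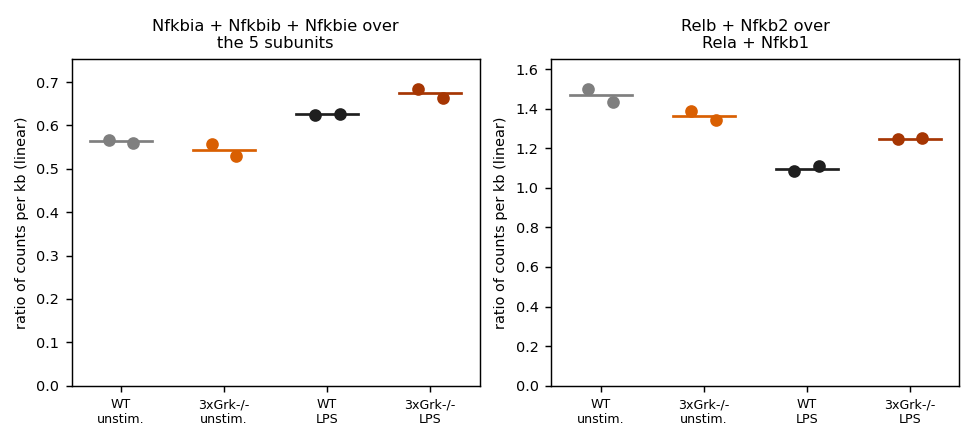
Ratios of summed counts per kb on a linear axis from 0, with a point for each library and a line for the mean, for the IkB genes over the subunits (left) and for *Relb* and *Nfkb2* over *Rela* and *Nfkb1* (right). The left ratio is highest in LPS-stimulated 3xGrk-/- libraries (0.685 and 0.664) and the right one lowest in LPS-stimulated WT libraries (1.09 and 1.11).

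The members were set beside 40 other genes of the NF-kB pathway. In unstimulated cells 17 of them were higher and 4 lower in 3xGrk-/- cells, and in LPS-stimulated cells 13 were higher and 10 lower, beside the background of 44.7% and 48.6% of all genes. Among the 11 genes of the IkB kinase step, 5 rose and 0 fell without LPS and 3 rose and 4 fell with LPS, where 22.1% and 24.7% of all genes were higher and 22.7% and 24% lower. Without LPS *Ikbke* (0.57 ± 0.0720), an IKK-related kinase, and *Ikbkg* (0.51 ± 0.0717), the scaffold NEMO, had the highest log2 fold changes of the pathway list. *Zc3h12a*, the gene of the RNase Regnase-1, rose by 0.44 ± 0.0929. *Pdlim2*, whose product promotes degradation of nuclear RelA, fell by 0.50 ± 0.119 without LPS and rose by 0.96 ± 0.181 with LPS. With LPS *Malt1*, the gene of a protease that activates the pathway, rose by 0.98 ± 0.0646 and *Tbk1* by 0.50 ± 0.0733. *Tnip3*, a partner of A20, fell by 0.46 ± 0.0562 without and by 0.93 ± 0.0675 with LPS. *Birc2*, the gene of cIAP1, and *Tab2*, an adaptor of the kinase TAK1, fell by 0.52 ± 0.0636 and 0.44 ± 0.0624 with LPS.

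LPS itself raised 25 and lowered 7 of the 40 pathway genes in WT cells, where 29.5% of all genes were called as higher and 30.8% as lower. It raised 21 and lowered 11 in 3xGrk-/- cells, beside 28% and 27.4% of all genes. *Zc3h12a* responded by a log2 fold change of 1.66 and 1.48 in WT and 3xGrk-/- cells. *Ikbke* (1.49) and *Rnf31* (1.36), the catalytic part of the linear ubiquitin ligase, came next in WT cells, and *Traf1* (1.335) and *Tax1bp1* (1.33) in 3xGrk-/- cells. Among the genes that fell were *Pdlim2* (-1.89) and *Card9* (-0.81) in WT cells and *Tab1* (-0.74) and *Traf5* (-0.66) in 3xGrk-/- cells. The difference of the responses, 3xGrk-/- minus WT, was called as positive for 5 and as negative for 14 pathway genes. Of all genes 32.5% were called, 16.5% as positive and 16% as negative. DESeq2 called 10 of the 40 in this test, and leaving out single libraries left 10 to 18, with 10 without the first stimulated 3xGrk-/- library. The other IkB-like genes, *Bcl3* and *Nfkbid*, did not differ detectably between the genotypes (log2 fold change -0.12 and 0.06 without and 0.19 and 0.18 with LPS).

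**Figure D5:**
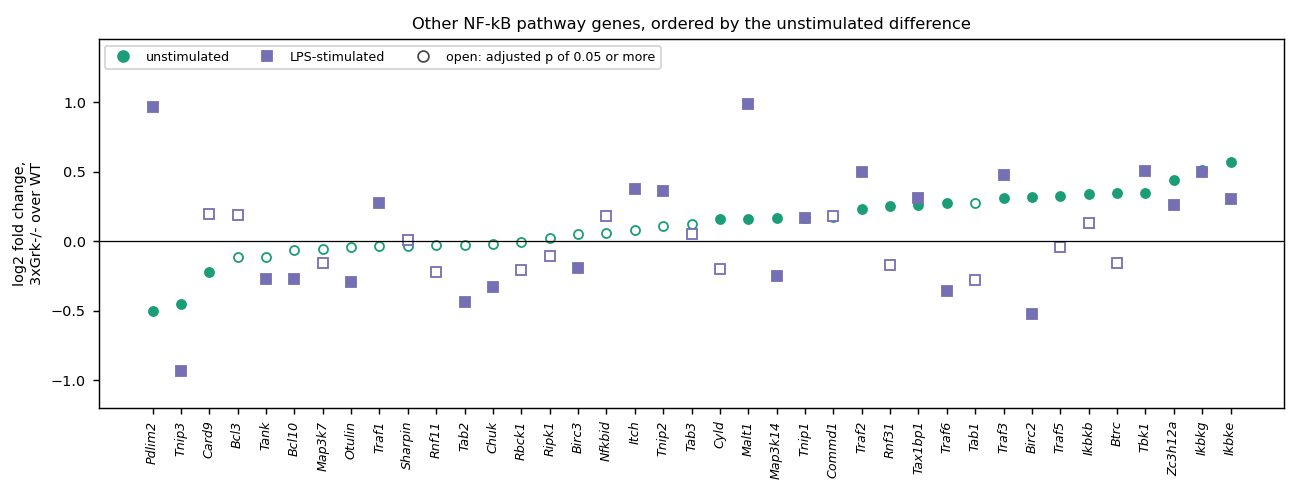
Log2 fold change, 3xGrk-/- over WT, of 39 of the 40 other NF-kB pathway genes, ordered by the unstimulated value, with circles for unstimulated and squares for LPS-stimulated cells and open symbols for an adjusted p of 0.05 or more. *Ikbke* and *Ikbkg* lie at the upper end without LPS, and *Pdlim2* and *Malt1* are the highest with LPS.

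Genes known as NF-kB targets were looked at last. A call with a log2 fold change of 1 or more in either direction was made for 12 of them without and 21 with LPS, for 0 members in either state, and for 12% and 16.8% of all genes tested. Of the 32 listed targets 28 were tested without LPS, with 16 higher and 9 lower in 3xGrk-/- cells, and 30 with LPS, with 19 higher and 10 lower, beside 22.1% higher and 22.7% lower without and 24.7% higher and 24% lower with LPS among all genes. Some targets had few counts in 1 genotype and passed the filter through the other, which largely fixed their direction. Without LPS, *Ptgs2* had 1 and 4 counts in WT against 13 and 12 in 3xGrk-/- libraries, and *Cxcl1* 6 and 8 against 28 and 36. With LPS, *Csf3* had 3 and 8 against 93 and 105. *Cxcl10* without LPS (66 and 59 against 17 and 8) and *Ltb* with LPS (15 and 30 against 5 and 4) went the other way. The cytokine genes *Il1a* (4.22 ± 0.133) and *Il1b* (2.77 ± 0.112) and the acute phase gene *Saa3* (3.99 ± 0.205) rose most without LPS on the log2 scale. The chemokine gene *Cxcl10* fell by 2.32 ± 0.274, the adhesion molecule *Vcam1* by 1.21 ± 0.165 and *Ltb*, the gene of lymphotoxin beta, by 0.74 ± 0.142. With LPS, *Nos2*, the inducible nitric oxide synthase, had 25.04 and 28 CPM in WT and 541 and 521 in 3xGrk-/- libraries, and the growth factor gene *Csf3* 0.544 and 1.24 against 16.9 and 17.0. *Ptgs2*, the gene of cyclooxygenase 2, rose by 3.02 ± 0.119. At the other end *Ltb* fell by 2.25 ± 0.467, *Il12b*, the shared subunit of IL-12 and IL-23, had 255 and 261 CPM in WT and 58.9 and 59.2 in 3xGrk-/- libraries, and *Ebi3* fell by 1.765 ± 0.0678. LPS itself raised 25 and lowered 4 of the 30 targets tested in WT cells, where 29.5% of all genes were higher and 30.8% lower. It raised 24 and lowered 3 in 3xGrk-/- cells, beside 28% and 27.4% of all genes.

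Members overlapped few other annotated genes. *Nfkbib* shares 778 bases with *Sirt2* on the opposite strand, which had 417 to 676 counts per library, and 718 bases with *Ccer2*, which had at most 1. *Nfkb2* shares 1292 bases with *AC114539.1* on the opposite strand, whose counts were not analysed here, and 299 bases with *Psd*, which had at most 3 counts. *Nfkb1* shares 3897 bases with *Gm43430*, which had 4 to 21. Whether the counting used the strand is not given in the sources used here, so that reads in the parts shared with genes on the opposite strand, above all *Sirt2*, are uncertain.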

How the data were processed

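RNA of WT and 3xGrk-/- BMDCs, unstimulated or LPS-stimulated, was analysed in 8 libraries, and groups and replicate numbers came from the sample labels. The dose, the time and the length of the culture are those of the study's methods. The authors prepared stranded mRNA libraries, aligned the reads to the mouse genome with STAR within snakePipes and counted them on genes with featureCounts, and the submitters' processing notes name GRCm38. The deposited values are raw counts of reads per gene without normalization, in one table for each stimulation. Annotation release and strand setting are not given in the sources used here. Of 47937 gene IDs, 47224 matched GENCODE M21 without and 39106 with their version, and IDs that matched nothing held 0.0847% of the counts. Each library had a column, and depth, 4713305 to 6933358 counts, limits the precision of low genes such as *Nfkbiz*.

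Genes were filtered with filterByExpr and scaled by TMM, and edgeR 4.0.16 (R 4.3.3, glmQLFit and glmQLFTest) gave log2 fold changes and p-values, adjusted by Benjamini-Hochberg over all genes tested and called under 0.05. The genotypes were compared within each table, and the responses to LPS and their difference in one fit of all 8 libraries. The standard error is the log2 fold change over the root of the F statistic, and the 95% interval spans 1.96 of it on each side. This is approximate and somewhat too narrow, since the test has few degrees of freedom. The fits were run on simulated counts with known changes and the same small coefficient of variation for every gene. This checks the code and says nothing about the spread between biological replicates. With 2 libraries against 2 an exact permutation test could not go below 0.333, so none was used. CPM are counts scaled by the library size of the genes that passed the filter times its TMM factor, over the 8 libraries. Promoter windows were taken from RefSeq (GRCm38.p6) and searched in Python 3.11.15. No protein sequences were used here.

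The members, the pathway, target and marker lists and the tests were chosen with earlier results of these data known. Named are all members, the targeted kinases and, of the pathway and target lists, in each comparison the 3 called genes that rose and the 3 that fell most, while *Bcl3*, *Nfkbid*, single marker genes and genes that overlap a member were added after their values were seen. Not every gene of this rule is reported here. Of the targets, the responses to LPS are given as counts only, since several had almost no reads without LPS. The alternatives were DESeq2 1.42.0, RLE size factors, library size alone, other filters, a set coefficient of variation, a minimum log2 fold change of 1, other fits, a replicate block, the removal of *Gm42418* and of each library, a relaxed motif, undivided counts for the ratios and, chosen after the data were seen, all annotated exons as the length.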

Additional observations from a re-analysis of the deposited data

Results flagged for a closer look

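For 6 of the 10 members the genotype had an unequal effect in the resting and the LPS-stimulated state, by the interaction test in the fit of 8 libraries. The log2 effect with LPS minus that without was -0.94 for *Nfkbiz*, -0.87 for *Nfkbib*, -0.64 for *Nfkb1*, -0.45 for *Nfkb2*, -0.39 for *Rel* and 0.34 for *Tnfaip3*. For *Nfkb1*, *Rel*, *Nfkbib* and *Nfkbiz* the effect was called with opposite signs in the 2 states. With LPS, the calls of *Nfkb1*, *Rel* and *Nfkbiz* were lost when certain single libraries were left out. The share of all genes called with opposite signs was not counted, while 44.7% were called without and 48.6% with LPS. *Nfkb2* went from 0.41 to -0.03, of which only the first was called, while *Tnfaip3* was higher in 3xGrk-/- cells in both states.

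Among the named pathway genes the same difference was 1.46 for *Pdlim2*, 0.82 for the protease gene *Malt1* and 0.42 for the adaptor *Card9*. It was -0.84 for *Birc2*, -0.63 for the ubiquitin ligase *Traf6* and -0.56 for *Tab1*. *Pdlim2*, *Birc2* and *Traf6* were called with opposite signs in the 2 states, while *Card9* (-0.23 and 0.20) was called only without LPS and *Tab1* (0.28 and -0.28) in neither state. *Traf6* had 134 and 125 CPM against 156 and 155 without LPS, and 259 and 228 against 188 and 191.5 with LPS, in WT against 3xGrk-/- libraries.

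Among the targets it was 4.44 for *Cxcl10*, 1.93 for *Vcam1*, 1.89 for the iron-binding lipocalin *Lcn2*, -1.80 for *Il12b*, -1.79 for the survival gene *Bcl2l1* and -1.68 for *Il1a*. *Cxcl10* had 12.6 and 8.27 CPM in unstimulated WT against 2.54 and 1.39 in 3xGrk-/- libraries, and 35.2 and 43.2 against 177 and 165.5 with LPS. Across all genes 32.5% were called in this test.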

How the results depend on the processing

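The alternatives other than the set coefficient of variation and the minimum log2 fold change gave 710 values of single members. Of these values, 675 kept direction and side of the threshold, 23 lost the call, 9 gained it and 3 turned their sign. These were *Nfkb2* with LPS between the genotypes without the second stimulated WT library (0.0201, and -0.0645 without the first), *Rela* in the response of WT cells with library size alone (-0.0605) and *Relb* in the interaction without the first stimulated WT library (-0.0479, and 0.135 without the second). Of the targeted kinases, *Grk6* turned in the response of WT cells with library size alone (-0.0166).

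With the coefficient of variation set to 0.4, members called were 0 without LPS, 0 with LPS, 2 (*Nfkbib* and *Nfkbiz*) and 1 (*Nfkbiz*) in the responses of WT and 3xGrk-/- cells and 0 in the interaction. Pathway genes called were 0, 0, 2, 1 and 0, and targets called were 7 and 17 between the genotypes and 1 in the interaction. With calls limited to a log2 fold change of 1 or more in either direction, members called were 0, 0, 4, 2 and 0, pathway genes 0, 0, 9, 6 and 1, and targets 12 without LPS and 10 in the interaction. DESeq2 called 10 pathway genes in the interaction, where edgeR called 19. Over all genes DESeq2 called 3086 against 5369 without LPS and 2643 against 4070 in the interaction, and the set coefficient left 448, 782, 1110, 850 and 72. Library size alone moved the share of higher genes among the calls without LPS from 49.3% to 35.8%.

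Leaving out single libraries gave 8 to 9 members called without and 3 to 8 with LPS, 9 to 10 and 10 to 10 in the responses of WT and 3xGrk-/- cells and 6 to 8 in the interaction. Pathway genes called ran from 15 to 26 with LPS and from 10 to 18 in the interaction, lowest without the first stimulated 3xGrk-/- library in both. Where this left a group with 1 library, that library is assumed to vary like the others.

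Counts undivided by length gave log2 differences of the inhibitor ratio of -0.10 between the unstimulated genotypes and 0.063 for LPS in WT cells, in place of -0.05 and 0.15. With all annotated exons the latter was 0.21, and the ratio of alternative to classical subunits gave -0.00285 and 0.0849 between the genotypes without and with LPS and -0.142 and -0.0543 for LPS in WT and 3xGrk-/- cells.

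With the replicate block, 8 members were called without and 7 with LPS, 10 and 10 in the responses and 6 in the interaction, and no call of a member changed. Deviations of libraries with the same number correlated by -0.067 to 0.0733 over 9261 genes. A small shared effect, or one that differs between groups, could be missed in this way. Whether libraries with the same number belong together therefore stays unknown.

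Depth limits the precision for *Nfkbiz*, with 82 to 142 counts per unstimulated library. The study's methods speak of technical repeats, marker levels changed with the genotype and with LPS, and the stimulations were deposited in separate tables.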

Other observations

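For each member the gene with the most similar profile was looked up among 9341 expressed genes, as the root mean square difference in centred log2 CPM over the 8 libraries. The closest pair was *Nfkb1* and the calcium channel subunit gene *Cacnb3*, with a difference of 0.0243. *Cacnb3* had 1128 and 1138 CPM in unstimulated WT, 1550 and 1519 in unstimulated 3xGrk-/-, 2587 and 2800 in LPS-stimulated WT and 2294 and 2183 in LPS-stimulated 3xGrk-/- libraries. *Nfkbib* was most like *Ccr7* (0.0912), the chemokine receptor of mature dendritic cells, which had 1230 and 1218 CPM in unstimulated WT, 1452 and 1448 in unstimulated 3xGrk-/-, 3675 and 3884 in LPS-stimulated WT and 3081 and 2987 in LPS-stimulated 3xGrk-/- libraries. Both genes thus had the higher level in 3xGrk-/- cells without LPS and in WT cells with LPS.

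*Nfkbiz* was nearest to *Cd1d1* (0.136), the lipid antigen-presenting molecule, and *Tnfaip3* to the class I gene *H2-T23* (0.0688), which had 660 and 687 CPM in LPS-stimulated WT and 1134 and 1098 in LPS-stimulated 3xGrk-/- libraries. The nearest genes of the remaining members were *Bhlhe40* for *Nfkb2* (0.0459), *Arel1* for *Rel* (0.0464), *Rab3gap1* for *Rela* (0.0326), *Strn4* for *Relb* (0.0357), *1810037I17Rik* for *Nfkbia* (0.0430) and *Marcksl1* for *Nfkbie* (0.0397). The 8 libraries of a pair share their depth and scaling, and the likeness is a description without a test.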
